A study of Homo sapiens with 8 samples.

Results

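A set of 9 protein-coding genes (SEC14L1, MAMLD1, CAST, VMP1, MRPL3, NOP56, CPXM2, MARCHF6 and UBAP2L) took between 27.3 and 33.8% of all counts in each Ribo-seq library, although the 8 of them listed in the RNA-seq table held 0.125 to 0.128% of RNA-seq counts. They were picked from the 14019 genes of the Ribo-seq table for their large share of Ribo-seq counts against their RNA level. Their change after knockdown also served to pick them. Those values are therefore given as a description, and the Ribo-seq calls of the 9 are listed under processing without being read as a result. The study compared SH-SY5Y cells, an established human neuroblastoma line, that carry a short hairpin RNA against RPS29 (shRPS29, the knockdown) with the same line carrying a control hairpin (shCONT). RPS29 encodes a protein of the small ribosomal subunit. Each group had 2 RNA-seq and 2 Ribo-seq libraries, 8 in all, and nothing in the labels says whether the replicates were separate cultures, so p-values measure the spread between these libraries, which may be technical.

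Ribo-seq sequences the short RNA fragments that a translating ribosome shields from nuclease, so its counts are usually read as ribosome footprints on coding sequence. Many genes also carry small RNA genes inside their span. Small nucleolar RNAs (snoRNAs) guide chemical modification of ribosomal RNA, small Cajal body RNAs (scaRNAs) guide that of spliceosomal RNAs, and microRNAs (miRNAs) are cut from a hairpin and guide Argonaute proteins to target mRNAs. Such RNAs are themselves short, stable and bound by protein.

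According to RefSeq (GRCh38.p14), 7 of the 9 genes held at least 1 small RNA gene within their span, and MAMLD1 and CPXM2 held none. Small RNA content was part of how the genes were described when they were picked, so this count is also a description. Of the 14015 genes of the Ribo-seq table that matched RefSeq, 1485 (10.6%) held one, as did 19.4% of those with a span over 100 kb and 35 of the 50 genes with the largest Ribo-seq shares. The other genes with large shares thus often held one too. SEC14L1, a lipid-binding protein of the SEC14 family (chr17:77088685-77217101), held SCARNA16 (chr17:77089307-77089493) and MIR6516 (chr17:77089417-77089497), which overlap each other by 77 bases and begin 622 and 732 bases after the start of the gene. VMP1 (chr17:59707654-59842255), a membrane protein needed to form autophagosomes, held MIR21 (chr17:59841266-59841337), which ends 918 bases before the end of its span. NOP56 (chr20:2652632-2658393), a core protein of the box C/D snoRNA particle, held 6 small RNA genes in 5.76 kb: MIR1292, the box C/D snoRNAs SNORD110, SNORD86, SNORD56 and SNORD57, and the box H/ACA snoRNA SNORA51.

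The remaining 4 of these 7 genes held 1 small RNA gene each. MRPL3 (chr3:131462212-131502971), a protein of the large subunit of the mitochondrial ribosome, held SNORA58 (chr3:131478998-131479233). UBAP2L (chr1:154220172-154271510), a stress granule protein, held SNORA58B (chr1:154259727-154259862). CAST (chr5:95961429-96774683), which encodes calpastatin, the inhibitor of calpain proteases, held MIR583 (chr5:96079138-96079212). MARCHF6 (chr5:10353695-10440388), a ubiquitin ligase of the endoplasmic reticulum, held MIR10397 (chr5:10402364-10402431). MAMLD1 (chrX:150361572-150514173) is a mastermind-like protein linked to male sexual development, and CPXM2 (chr10:123745639-123944104) is a carboxypeptidase-like secreted protein. The reference gives spans only, so exon or intron is not stated here for any of these small RNA genes. Here and below, a gene holds, or is host to, a small RNA gene that lies within its span on either strand. The miRNAs of SEC14L1, CAST, VMP1 and NOP56 lie on the strand of their host.

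**Figure D1:**
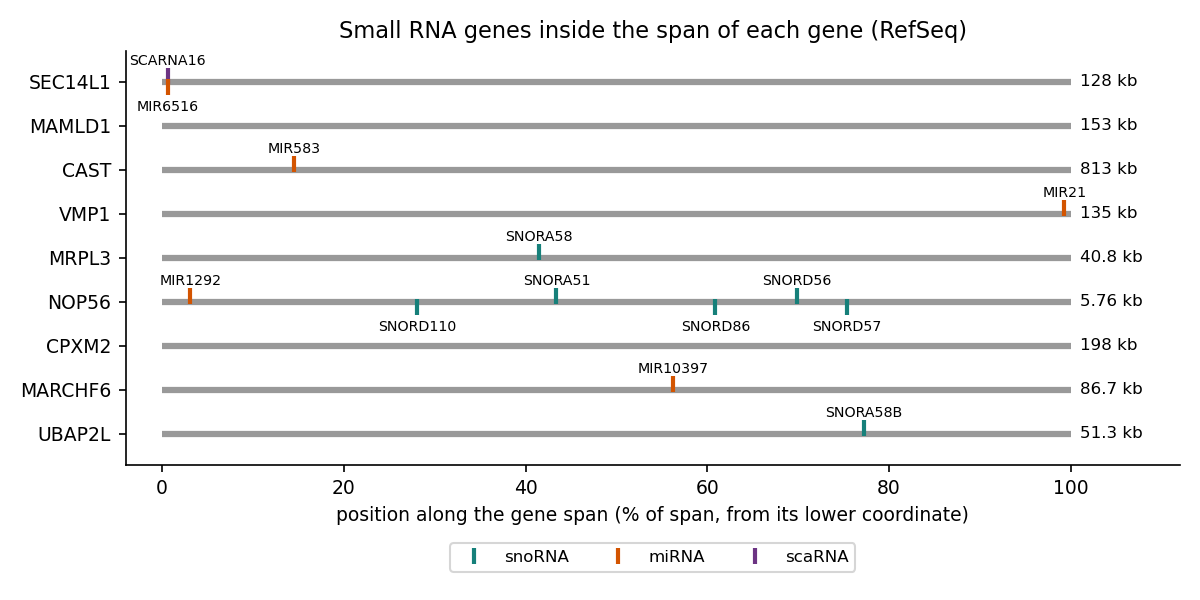
Position of RefSeq small RNA genes (ticks, coloured by kind) along the span of each gene, as % of the span counted from its lower coordinate, with the span length in kb at the right. The tick of MIR21 sits at 99.3% of the VMP1 span, those of SCARNA16 and MIR6516 at 0.6% of the SEC14L1 span, and MAMLD1 and CPXM2 have no tick.

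Of the 9 genes 5 hold a miRNA gene, as do 6.96% of matched genes and 19 of the 50 genes with the largest Ribo-seq shares. Mature miRNAs are of a length that short-fragment libraries can hold. Those that the RefSeq reference used here (GRCh38.p14) lists inside the 9 genes are printed 5′ to 3′, with the seed, bases 2 to 8, in capitals.
miR-21-5p in VMP1: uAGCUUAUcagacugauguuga
miR-6516-5p in SEC14L1: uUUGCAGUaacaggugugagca
miR-6516-3p in SEC14L1: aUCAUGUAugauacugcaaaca
miR-1292-5p in NOP56: uGGGAACGgguuccggcagacgcug
miR-1292-3p in NOP56: uCGCGCCCcggcucccguuc
miR-583 in CAST: cAAAGAGGaaggucccauuac
miR-10397-5p in MARCHF6: uCCUUGACcugaugcuguaggg
miR-10397-3p in MARCHF6: cAUAGAUCucgucgcuuacuggga
These 8 mature sequences are 20 to 25 bases long and have 8 distinct seeds, so among the listed sequences no hosts share a seed. The MIR21 hairpin is shown whole, because VMP1 is the host whose miRNA is best known. The stretch of miR-21-5p is in capitals. The reference lists no mature sequence from the other arm, so none is marked there.
MIR21 hairpin: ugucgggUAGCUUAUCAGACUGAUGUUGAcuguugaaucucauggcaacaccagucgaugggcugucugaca

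No row of the Ribo-seq table was a small RNA gene, and 14009 of its 14015 matched genes were protein coding. Of the small RNA genes above, none had a row in either table. Of the other genes that overlap the 9 on the genome and had rows in the Ribo-seq table, ELL2, PCSK1 and ERAP1, each overlapping CAST, had at most 444 counts in any library. SNHG20, a snoRNA host RNA whose span covers SCARNA16 and MIR6516, had a row in the RNA-seq table only, as had MARCHF6-DT beside MARCHF6.

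Ribo-seq libraries held 2630463 and 4375971 counts in shRPS29 and 2899655 and 3235621 in shCONT, and RNA-seq libraries 17539104 to 19156104. RPS29 RNA, the targeted gene, had 147 and 117 counts in shRPS29 and 2430 and 2872 in shCONT (log2 fold change -4.40, SE 0.115, edgeR adjusted p = 6.32e-12). Of 11 neuroblastoma identity markers 10 had a mean of at least 10 CPM (counts scaled to library size), and TH was under 1 CPM. Of 11 markers of other lineages 9 were under 1 CPM or not listed, with summed levels of 23.6 to 28.3 CPM in shRPS29 and 29.8 to 32.0 CPM in shCONT. In RNA-seq 3 of 10 tested neuroblastoma markers rose and 2 fell, and of 5 tested markers of other lineages 2 fell. Over all genes tested, 14.4% rose and 16.3% fell. In both lists some of these calls were lost with a control replicate left out. Between Ribo-seq libraries Spearman's rho across genes was 0.455 to 0.827, and shRPS29 replicate 1 stood farthest from the controls (0.528 and 0.455). Changes in Ribo-seq are therefore given with and without that library.

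SEC14L1 and MAMLD1 carried most of the set. SEC14L1 took 9.63 and 13.8% of Ribo-seq counts in the shRPS29 libraries, against 14.4 and 10.3% in the shCONT libraries. MAMLD1 took 14.1 and 6.97% in shRPS29, against 9.08 and 14.2% in shCONT. For both genes the groups overlapped, and each ranked between 1 and 4 in every library. Together they took 20.8 to 24.4% of a library.

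CAST and MARCHF6 were higher in both knockdown libraries than in either control. CAST took 3.99 and 1.12% of counts in shRPS29, against 0.232 and 0.0904% in shCONT, from 105080 and 48818 counts against 6715 and 2925. MARCHF6 took 2.43 and 0.784% in shRPS29, against 0.0789 and 0.0385% in shCONT, from 64007 and 34323 counts against 2288 and 1247. The groups did not overlap for either gene, and the share in shRPS29 replicate 1 was 3.58 times that in replicate 2 for CAST and 3.10 times for MARCHF6. In shCONT, CAST ranked 32 and 50 and MARCHF6 72 and 117 among genes, so neither was a dominant gene there.

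VMP1 and CPXM2 also separated the groups. VMP1 took 1.58 and 1.38% in shRPS29, against 0.939 and 0.504% in shCONT. CPXM2 took 0.465 and 0.274% in shRPS29, against 1.63 and 1.49% in shCONT. VMP1 was the higher in the knockdown and CPXM2 the lower, in both libraries of each group. The 2 genes otherwise ranked between 6 and 30 in every library.

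MRPL3, NOP56 and UBAP2L overlapped between groups. MRPL3 took 0.759 and 1.62% in shRPS29, against 1.12 and 0.853% in shCONT. NOP56 took 0.594 and 0.639% in shRPS29, against 0.612 and 2.34% in shCONT. UBAP2L took 0.261 and 0.665% in shRPS29, against 0.586 and 1.29% in shCONT. In NOP56 a single library, shCONT replicate 2, stood 3.82 times above the other control, while its other 3 libraries lay between 0.594 and 0.639%.

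**Figure D2:**
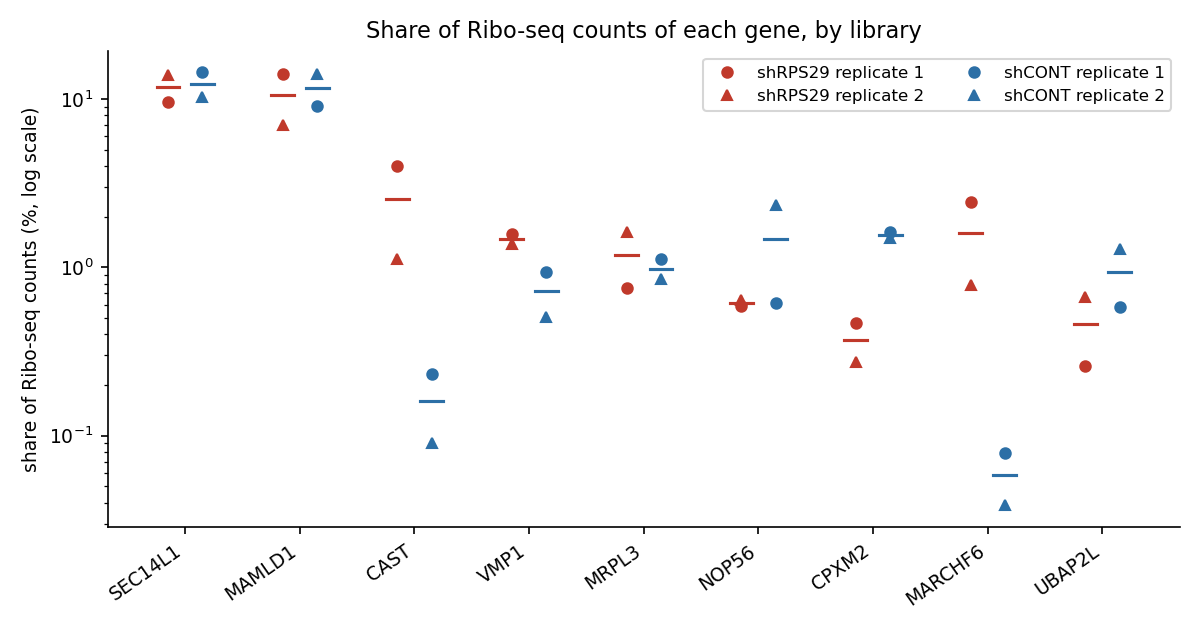
Share of Ribo-seq counts (%, log axis) of each of the 9 genes in each library, with shRPS29 in red left of shCONT in blue, replicate 1 as circles, replicate 2 as triangles and the group mean as a bar. SEC14L1 and MAMLD1 lie between 6.97 and 14.4% in every library, and CAST and MARCHF6 fall below 0.25% in both shCONT libraries.

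The shares of 4 of the 9 genes (CAST, MARCHF6, VMP1 and CPXM2) did not overlap between groups, beside 57.3% of all tested genes. After TMM scaling the same 4 did not overlap, beside 55.7%. Counting error was small at this depth: 95% Wilson intervals were at most 0.042 percentage points either way, or 5.55% of the share. These intervals cover counting error only, since amplified reads without molecular identifiers are not independent molecules. The spread between replicates was far wider than that. The 9 genes together left 1742225 and 3182575 counts in shRPS29 and 2068158 and 2230944 in shCONT for all other genes, and their summed share overlapped between groups, at 33.8 and 27.3% in shRPS29 and 28.7 and 31.1% in shCONT.

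Genes outside the set with the largest mean shares were RPS2 (13.9%), RPL27A (9.27%), HOXD3 (1.80%), RPL21 (1.05%) and MCM7 (0.603%). SEC14L1 thus ranked second and UBAP2L, the lowest of the 9, ranked 13 by mean share, with 0.701% just above MCM7. Of these 5 genes, RPS2, RPL27A and RPL21 hold snoRNA genes, MCM7 holds MIR25, MIR93 and MIR106B, and HOXD3 holds none.

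Set against RNA, the shares were out of proportion. The share of Ribo-seq counts divided by the share of RNA-seq counts, which sets each gene against itself, was 589 in shRPS29 and 675 in shCONT for SEC14L1. It was 146 and 83.7 for VMP1, 64.5 and 66.9 for MRPL3, 30.8 and 98.7 for NOP56, and 15.4 and 23.1 for UBAP2L. It was 362 and 25.1 for CAST and 82.5 and 2.58 for MARCHF6, in the same order of groups. The median gene with at least 1 CPM of RNA had a ratio of 0.217 in shRPS29 and 0.290 in shCONT. Among those 11773 genes the 7 ranked between 7 and 226 in shRPS29 and between 5 and 538 in shCONT, where MARCHF6 ranked last of them.

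MAMLD1 had almost no RNA. It had 16 and 7 RNA-seq counts in shRPS29 and 10 and 9 in shCONT, against 369645 and 305171 Ribo-seq counts in shRPS29 and 263162 and 458903 in shCONT. Its ratio of shares lay between 112995 and 273491 over the 4 Ribo-seq libraries, each set against the mean RNA-seq share of its group. CPXM2 had no row in the RNA-seq table, where each listed gene has at least 3 counts in total, and had 12236 and 11974 Ribo-seq counts in shRPS29 and 47203 and 48315 in shCONT. The genes without an annotated small RNA were thus the one with the fewest RNA-seq counts of the set and the one with no row.

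**Figure D3:**
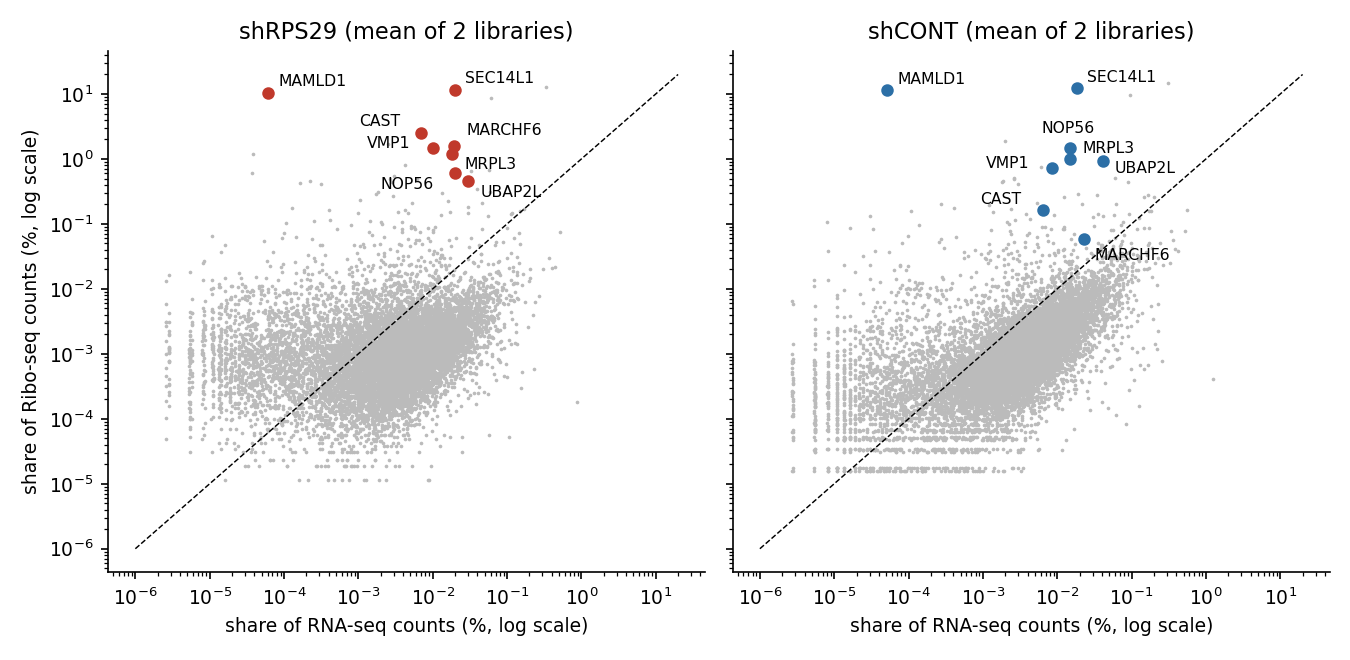
Share of Ribo-seq counts against share of RNA-seq counts (%, both log axes) for genes in both tables, with shRPS29 at the left and shCONT at the right; grey points are all genes above 0 in both, coloured points are the named genes, each the mean of 2 libraries, and the dashed line marks equal shares. The 8 named genes with a row in both tables lie above the line in both panels, and MARCHF6 lies nearest to it in shCONT, with a ratio of 2.58.

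Counts per length of gene span were also high for the 9. They use the large Ribo-seq counts that picked these genes, so this is a description and not a further trait. Over the 4 Ribo-seq libraries they had 201 (CAST) to 23767 (NOP56) counts per kb of span, beside a median of 2.97 over all matched genes. CAST, at 813 kb, has one of the longest spans, exceeded by 0.863% of genes, and NOP56 one of the shorter, exceeded by 91.1%. Of the 9, the longest span thus had the lowest value and the shortest the highest, and dividing by span by itself lowers the value of a long gene. SEC14L1 and MAMLD1 departed from that order, with 12520 and 9154 counts per kb over 128 and 153 kb. MRPL3 had 3705 counts per kb over 40.8 kb.

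The pattern over the 4 Ribo-seq libraries was then compared with that of other genes. For each gene the 2 genes most like it were taken by the root mean square difference of centred log2 CPM over the 4 libraries, among 164 genes with a mean of at least 1000 counts, of which 84 (51.2%) hold a small RNA gene. Small RNA content played no part in this measure. Of SEC14L1, host of a scaRNA, the nearest were TIPIN and TMEM167A, which hold SCARNA14 and SCARNA18 (differences 0.10 and 0.10). Of NOP56 they were CKAP5 and PHB2 (0.11 and 0.12), which hold SNORD67 and SCARNA12 among others.

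The nearest gene of MRPL3 was HSPA8 (0.11), which holds SNORD14C, SNORD14D and SNORD14E. Those of UBAP2L were WDR43 and RPL5 (0.15 and 0.30), which hold SNORD92 and SNORD21 with others. Those of VMP1 were HUWE1 and DNM3 (0.11 and 0.17), which hold the miRNA genes MIR98 and MIRLET7F2, and MIR214, MIR3120 and MIR199A2. Within DNM3, MIR214 and MIR199A2 lie on the strand opposite to MIR3120, so not all are on the strand of that gene. The sequences of the HUWE1 miRNAs that share a seed are shown beside that of miR-21-5p above, since hosts of unrelated miRNAs had nearly the same pattern.
let-7f-5p in HUWE1: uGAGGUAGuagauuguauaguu
miR-98-5p in HUWE1: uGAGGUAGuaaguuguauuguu

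In contrast, the nearest genes of MAMLD1 (TNFRSF9 and MORC3, 0.12 and 0.19), CPXM2 (NME1-NME2 and ID2, 0.45 and 0.47), CAST (PIMREG and HSPA4, 0.20 and 0.24) and MARCHF6 (TMEM132D and UXS1, 0.10 and 0.34) hold no small RNA gene. Of the 18 nearest genes of all 9, 10 hold one, beside 51.2% of the genes compared. These 10 are the nearest genes of SEC14L1, VMP1, NOP56, UBAP2L and MRPL3, and the other 4 genes have 0 of 8. This split of the 9 was made by these same counts, so 10 of 10 and 0 of 8 follow from it and are not a result. The points also share 4 libraries, so no test is given. CAST and MARCHF6, which each contain a miRNA gene, are among the other 4 genes. Their nearest genes varied with the libraries used. A host was among them for CAST without shCONT replicate 2 (LYN) and for MARCHF6 without shRPS29 replicate 2 (CAST). With any 1 library left out, 9 to 12 of the 18 nearest genes held one, and 9 did without shRPS29 replicate 1. Among 322 genes with a mean of at least 500 counts, of which 42.5% hold a small RNA gene, 8 of the 18 did.

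**Figure D4:**
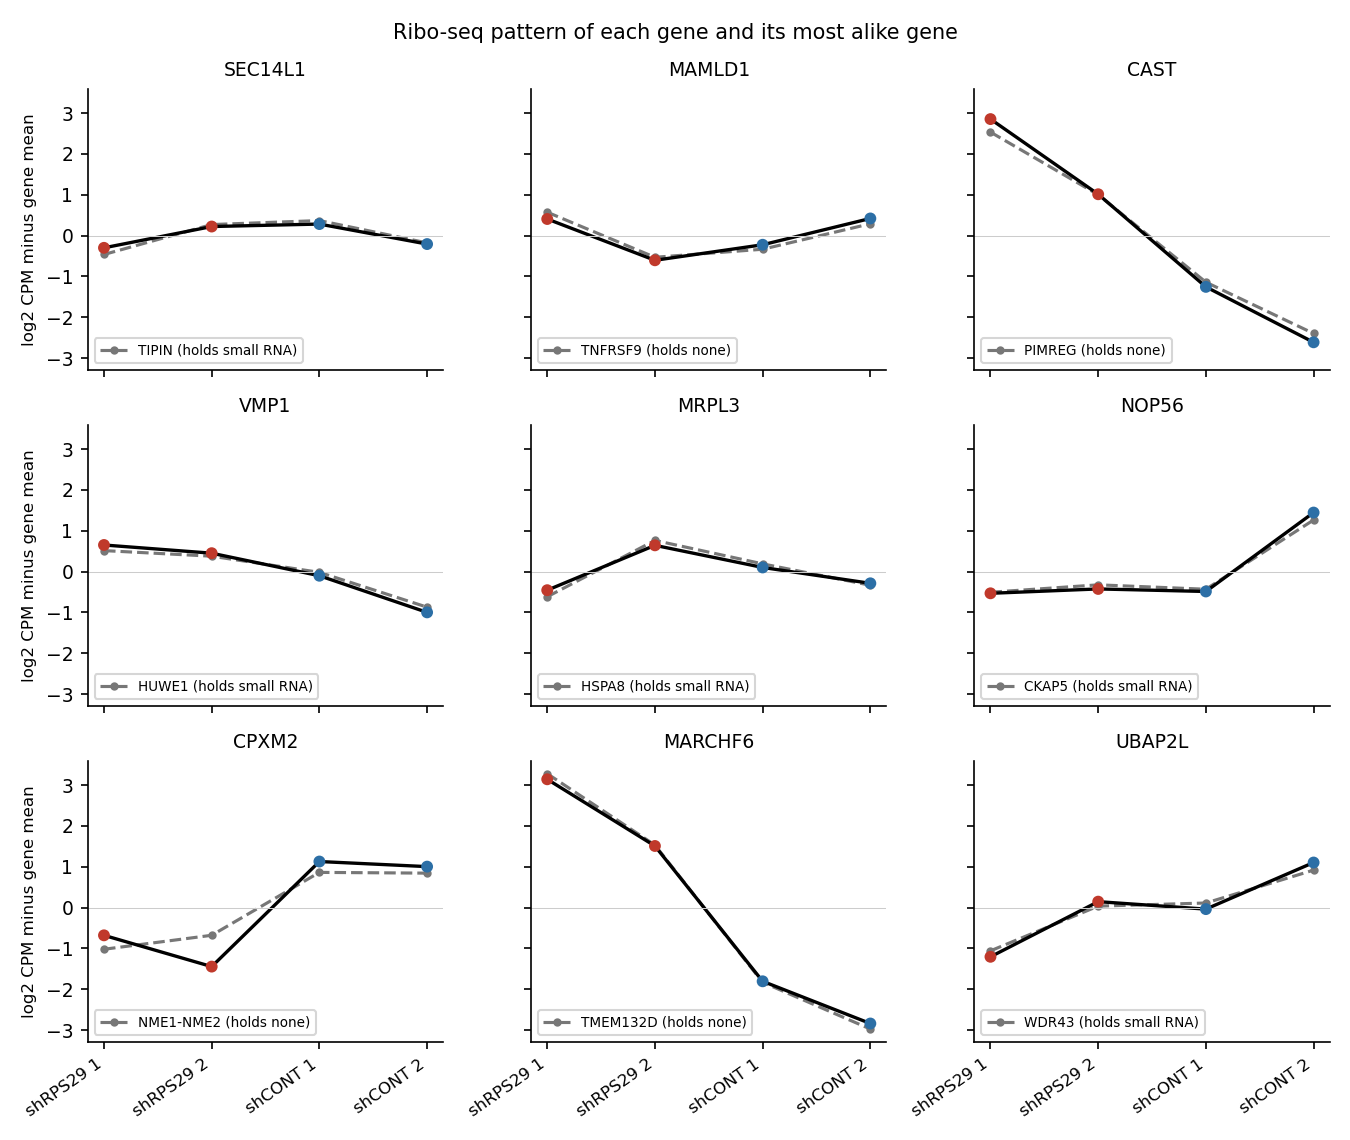
Log2 CPM minus the gene's mean over the 4 Ribo-seq libraries, for each of the 9 genes (black line, red shRPS29 and blue shCONT points) and its most alike gene (grey); lines only join points of a gene and imply no order. CAST and MARCHF6 lie above 1 in both shRPS29 libraries and below -1 in both shCONT libraries, and CPXM2 is farthest from its nearest gene (0.45).

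Among all 164 genes, those of each class often had a gene of their own class as nearest, and so did genes that hold none. Of 44 genes that hold a snoRNA or scaRNA gene, 59.1% had another such gene as their nearest, beside 26.8% of the genes compared. Of 38 that hold a miRNA gene and no snoRNA or scaRNA gene, 55.3% had another such gene as their nearest, beside 23.2%. Of 80 that hold no small RNA gene, 66.25% had another such gene as their nearest, beside 48.8%. Without 4 genes in overlapping pairs with near-equal counts, such as RPL5 and DIPK1A, these shares were 55% beside 25%, 55.3% beside 23.75% and 66.25% beside 50%. These counts are a description added after the values were seen.

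Among the 9 themselves, SEC14L1 and MRPL3 were the most alike (0.25), followed by CAST with MARCHF6 (0.41) and NOP56 with UBAP2L (0.52). MARCHF6 and CPXM2 were the least alike (3.42). CAST and MARCHF6 belonged to 28 genes of the 164 whose share in both shRPS29 libraries was at least 4 times that in both shCONT libraries, a fold set after the values were seen. These 28 together took 20.5 and 5.97% of counts in shRPS29 and 0.471 and 0.208% in shCONT. In each of them shRPS29 replicate 1 was above replicate 2, by 2.60 to 4.22 times, whereas the other 136 genes had a median ratio of 0.699. Of the 28, 10 hold a small RNA gene, beside 51.2% of the 164 genes compared and 10.6% of all matched genes. The part that library differences play in the higher shares of CAST and MARCHF6 was not tested.

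The fit over all genes gives the change after knockdown with its error, in Ribo-seq counts scaled by TMM, the trimmed mean method of edgeR. The Ribo-seq log2 fold change was 4.27 (SE 1.14) for CAST and 5.05 (SE 1.09) for MARCHF6, and 3.09 and 4.03 without shRPS29 replicate 1. It was 1.31 (SE 0.918) for VMP1 and -1.83 (SE 0.906) for CPXM2, and 1.22 and -2.25 without that library. It was -1.06 (SE 0.961) for NOP56, -0.81 (SE 0.901) for UBAP2L, 0.54 (SE 0.913) for MRPL3, 0.19 (SE 1.26) for SEC14L1 and 0.08 (SE 1.27) for MAMLD1. Without shRPS29 replicate 1 these were -0.998, -0.27, 1.00, 0.44 and -0.50. The sign of 4 of these 5 turned with 1 library or another left out: NOP56 was at 0.32 without shCONT replicate 2, MRPL3 at -0.20 and SEC14L1 at -0.18 without shRPS29 replicate 2, and MAMLD1 between -0.50 and 0.50. UBAP2L was at -0.01 without shCONT replicate 2. All 9 passed the filter on low counts.

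Over all 11853 genes tested in Ribo-seq, 8.57% were called at an edgeR adjusted p below 0.05, 7.96% higher and 0.607% lower in shRPS29. The 9 genes were picked partly on this contrast, so their own calls are not read as a result.

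**Figure D5:**
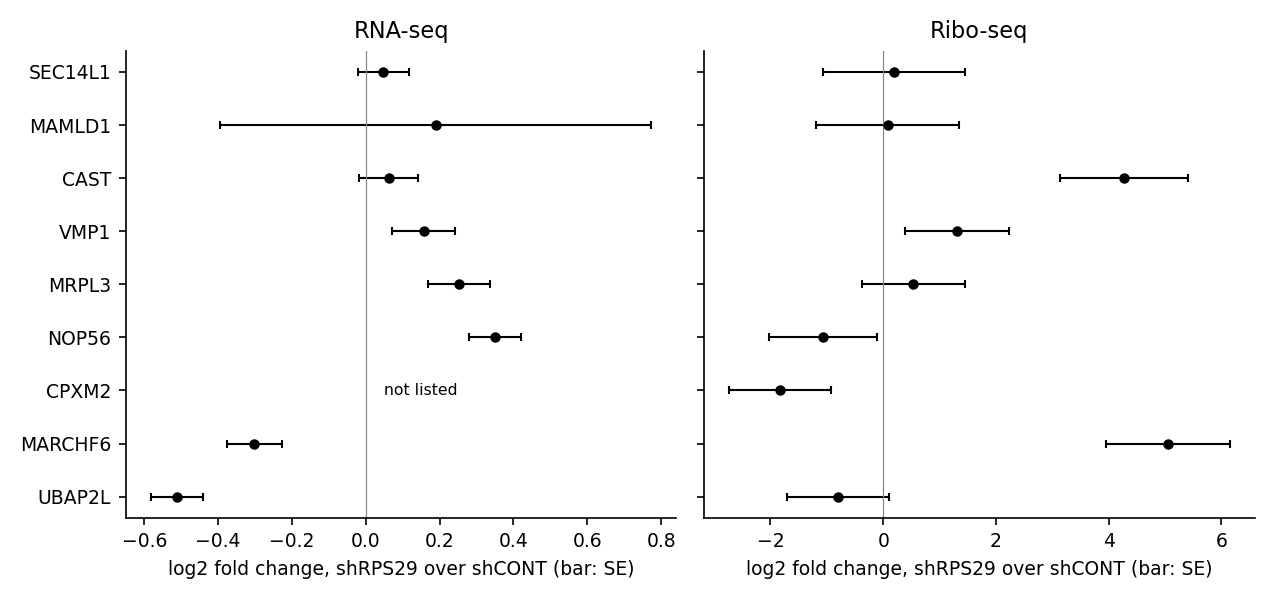
Log2 fold change of shRPS29 over shCONT with its SE (bar) for each gene, in RNA-seq at the left and in Ribo-seq at the right, where the horizontal scale is wider. RNA-seq values lie between -0.51 and 0.35 and Ribo-seq values between -1.83 and 5.05; CPXM2 has no RNA-seq value.

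RNA levels were measured in other libraries, and their change did not choose the genes. Their log2 fold changes ran from -0.51 to 0.35. Of the 8 genes tested in RNA-seq, NOP56 and MRPL3 rose and MARCHF6 and UBAP2L fell, so 4 of 8 were called beside 30.7% of all 14723 genes tested, of which 14.4% were higher and 16.3% lower. The groups did not overlap for 5 of 8, beside 65.2% of all genes.

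NOP56 RNA was at 201 and 190 CPM in shRPS29 and 154 and 153 CPM in shCONT (log2 fold change 0.35, SE 0.0702, edgeR adjusted p = 0.00164). All its shRPS29 libraries lay above all its shCONT libraries, and the adjusted p was 0.0518 without shCONT replicate 2 (4.99e-09 to 0.0518 over the alternatives). MRPL3 RNA was at 196 and 165 CPM in shRPS29 and 146 and 156 CPM in shCONT (0.25, SE 0.0844, edgeR adjusted p = 0.0336). This call was lost without shCONT replicate 1 (adjusted p = 0.302), shCONT replicate 2 (0.0903) or shRPS29 replicate 1 (0.152, with a log2 fold change of 0.12), in a range of 3.45e-08 to 0.302 over the alternatives.

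UBAP2L RNA was at 288 and 298 CPM in shRPS29 and 407 and 429 CPM in shCONT, a log2 fold change of -0.51 (SE 0.0706, edgeR adjusted p = 8.74e-05). It was called in each alternative, with an adjusted p of at most 0.00480. MARCHF6 RNA was at 180 and 200 CPM in shRPS29 and 231 and 237 CPM in shCONT (-0.30, SE 0.0735, edgeR adjusted p = 0.00619). Its RNA thus fell while its Ribo-seq share was higher in both knockdown libraries, and the RNA call was lost without shCONT replicate 1 (0.0623) or replicate 2 (0.115), in a range of 1.33e-08 to 0.115 over the alternatives.

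The other 4 RNAs did not pass the test, and the groups overlapped in all of them but SEC14L1. SEC14L1 was at 189 and 200 CPM in shRPS29 and 187 and 188 CPM in shCONT (0.05, SE 0.0697, edgeR adjusted p = 0.647). CAST was at 71.0 and 66.7 CPM in shRPS29 and 66.9 and 65.0 CPM in shCONT (0.06, SE 0.0790, adjusted p = 0.600 with edgeR). VMP1 was at 106 and 91.7 CPM in shRPS29 and 85.0 and 92.1 CPM in shCONT (0.16, SE 0.0852, adjusted p = 0.184 with edgeR). MAMLD1, with few counts, was at 0.19 (SE 0.584, adjusted p = 0.842 with edgeR), and -0.46 without shRPS29 replicate 1. The Ribo-seq log2 fold change of CAST, 4.27, thus stood beside an RNA change of 0.06 with an SE of 0.0790. SNHG20, which shares the start of SEC14L1 and is named after its values were seen, rose: it had 290 and 231 RNA-seq counts in shRPS29 and 141 and 155 in shCONT (0.74, SE 0.154, edgeR adjusted p = 0.00217).

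Known partners of each gene were read in the same RNA-seq fit, where the median log2 fold change of all genes was 0.01 and 14.4% of all genes rose and 16.3% fell. Each count is to be read against those shares, and no list was tested as a set. Of 16 proteins that form or assemble snoRNA particles, the partners of NOP56, 6 rose and 1 fell, with a median of 0.20. The assembly factor ZNHIT6 was at 0.74 (SE 0.107), the core protein NOP58 at 0.48 (SE 0.0748) and the chaperone RUVBL2 at 0.37. Without shCONT replicate 1 the counts were 3 and 0, without shCONT replicate 2 they were 4 and 0, without shRPS29 replicate 1 they were 5 and 3, and by edgeR RUVBL2 was not called without shCONT replicate 2 (adjusted p = 0.0579, and 2.07e-14 to 0.0579 over the alternatives). Of 48 other large-subunit proteins of the mitochondrial ribosome, the complex of MRPL3, 15 rose and 0 fell by edgeR, with a median of 0.17, and at an unadjusted p below 0.05 the count lower was 1. DESeq2 called 12 higher and 0 lower. MRPL38 was at 0.56, MRPL58 at 0.65 and MRPL24 at 0.58, and the count higher was 29 without shRPS29 replicate 2, with 3 lower without shRPS29 replicate 1.

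Of 22 stress granule proteins, the partners of UBAP2L, 12 fell and 3 rose, with a median of -0.25, beside 16.3% lower and 14.4% higher over all genes. The RNA-binding proteins YTHDF3 and FMR1 were at -0.73 (SE 0.0800) and -0.67 (SE 0.0915). No stress granule gene was called higher without either control replicate, and the count lower was then 9 without shCONT replicate 1 and 8 without shCONT replicate 2. Of 18 tested genes of endoplasmic reticulum-associated degradation, the pathway of MARCHF6, 6 rose and 2 fell, with a median of 0.07. VCP, the segregase that extracts substrates, was at -0.53 and the ubiquitin-conjugating enzyme UBE2J2 at 0.49. Without either control replicate 1 gene was lower, and those higher numbered 4 without shCONT replicate 1.

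Of 16 genes of autophagosome formation, where VMP1 acts, 2 rose and 6 fell, with a median of -0.07. For this and the next lists, the shares of all genes were 14.4% higher and 16.3% lower. ATG101, a subunit of the initiating kinase complex, was at 0.90 (SE 0.0797), the scramblase ATG9A at -0.78 and PIK3R4, of the phosphatidylinositol kinase complex, at -0.64. Without either control replicate, or without shRPS29 replicate 1, 1 gene was higher. Of 9 genes of miRNA processing and Argonaute proteins 1 rose, AGO2 (0.46, SE 0.0797), and 0 fell by edgeR or DESeq2 (1 at an unadjusted p below 0.05), with a median of 0.03, and without shRPS29 replicate 2 a further gene was lower. Of 22 reported targets of miR-21, the miRNA inside VMP1, 6 rose and 5 fell, with a median of 0.02. The tropomyosin TPM1 was at 0.59 (SE 0.0680), while NFIB, a transcription factor, was at -0.62 and PDCD4, a translation inhibitor, at -0.56. Those lower numbered 3 and those higher 4 without shCONT replicate 1, and those lower numbered 2 without shCONT replicate 2.

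Of the calpains that calpastatin inhibits and their relatives, 1 of 7 rose and 2 fell, with a median of 0.01. These counts, and those of the lists below, stand beside 14.4% higher and 16.3% lower over all genes. CAPN15 was at 0.45, CAPN1 at -0.34 and CAPN2 at -0.20, the last of which was not called without either control replicate or with the replicate block (7 of 10 alternatives called it). Of 12 tested genes of the mastermind and Notch pathway, the family of MAMLD1, 1 rose and 5 fell, with a median of -0.19. HES1, a Notch target, was at 1.26 (SE 0.222), MAML3 at -0.57 and the receptor NOTCH3 at -0.38. Without shCONT replicate 1 those lower numbered 2, NOTCH3 not among them (edgeR adjusted p = 0.0875, and 4.97e-05 to 0.0875 over the alternatives), and without shCONT replicate 2 they numbered 3. Of 6 tested lipid transfer proteins related to SEC14L1, PITPNA rose (0.26) and CLVS1 fell (-1.18), with a median of 0.10, and without shCONT replicate 2 neither was called. PITPNA was not called without shCONT replicate 1 either, and 2 of these genes rose without either shRPS29 replicate. Of 6 tested carboxypeptidases related to CPXM2, 0 passed the edgeR test or that of DESeq2, with a median of 0.06 and 2 higher at an unadjusted p below 0.05. Of them 1 rose without shRPS29 replicate 1 and 1 fell without shRPS29 replicate 2.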

How the data were processed

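RNA-seq and Ribo-seq were read from a table each, of 17927 and 14019 gene symbols. Both tables, as deposited, hold raw counts in whole numbers for each gene. The tools named are STAR, Bowtie2, Salmon, featureCounts and Trim Galore, with genome build hg38, per the submitters' processing notes. The sources used here do not say which of them produced either table, nor the annotation, nor whether counting was limited to coding exons or to certain fragment lengths. Counting over whole genes would add reads from a small RNA to its host, and this was not tested. Total counts per library, which set the precision, are given with the results. Overlapping genes can share reads: RPL5 and DIPK1A, a pair that overlaps, had counts within 0.311% of each other in every Ribo-seq library.

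Within each assay, edgeR 4.0.16 (R 4.3.3) was used for a quasi-likelihood test of counts (TMM, filterByExpr, Benjamini-Hochberg over all genes tested, threshold 0.05). An SE was obtained by dividing the size of the fold change (log2) by the root of its F value. Shares use the library total, and CPM the TMM-scaled total. Symbols were matched to RefSeq (GRCh38.p14), 14015 and 17830 of them. The alternatives were RLE scaling, DESeq2 1.42.0, no count filter, at least 50 counts in each library, a replicate block, scaling without small RNA hosts, and leaving out each library, which leaves a lone library assumed to vary like the other group. Other choices are described with their results.

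The 9 genes and the lists were chosen with earlier results of these data known. Named genes are the 9, the 5 other genes with the largest mean share, the 2 genes most like each of the 9, and of each list the called genes, at most 3 by smallest p. The partner lists were given no set test. A few genes that this rule names are not reported here and stay in the counts.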

Additional observations from a re-analysis of the deposited data

How the results depend on the processing

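Of 79 RNA-seq values of the 8 genes tested, under alternatives, 71 are counted as keeping their side of the threshold. Among them is MAMLD1 with DESeq2, which gave it no adjusted p. Those that did not keep it are 7 calls lost, named with the genes, and VMP1, which was called without shRPS29 replicate 2 (0.26). In Ribo-seq, with 2 libraries a group, a left-out library turned the sign of NOP56, MRPL3, SEC14L1 and MAMLD1, as given with the genes. RNA-seq calls over all genes were 2126 higher and 2396 lower, and 1225 to 2739 and 1496 to 2876 with a library left out. Ribo-seq calls were 944 and 72, and 247 to 694 and 5 to 53 with a library left out. With at least 50 counts in each library 239 were higher in Ribo-seq, and DESeq2 called 171 lower. Of the 9 genes, RNA-seq called 0 to 3 higher and 1 to 2 lower with a library left out. Ribo-seq calls of the 9, a contrast their choice used, were 2 higher (CAST and MARCHF6) and 0 lower, beside 7.96 and 0.607% of all genes tested. DESeq2 called 3 of the 9 higher, VMP1 among them, and 1 lower, CPXM2, beside 1148 and 171 of all genes. The edgeR calls of CAST and MARCHF6 did not hold in every fit with a library left out. None of these calls is read as a result. The summed share in shCONT was 27.6% of the effective library size, against 29.9% of the total. The nearest genes that hold a small RNA numbered 10 of 18, and 8 to 12 in the alternatives added after seeing the data.

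The labels do not say that a replicate number marks a shared culture or day, and with 2 pairs the pairing cannot be settled: deviations of same-numbered libraries correlated at -0.084 in RNA-seq and 0.114 in Ribo-seq. With the replicate block, 1402 genes were higher and 397 lower in Ribo-seq and 1 of the 9 was higher in RNA-seq, where MRPL3 had an edgeR adjusted p = 0.0717, within 3.45e-08 to 0.302 over its alternatives. In Ribo-seq the limit is the spread between replicates, not counting error.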

Other observations

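Most genes that hold a small RNA gene were not dominant in Ribo-seq. Among genes with at least 1 CPM of RNA, 451 hold a snoRNA or scaRNA gene, and their median ratio of Ribo-seq share to RNA-seq share was 0.402 in shRPS29 and 0.407 in shCONT. For 797 genes that hold a miRNA gene and neither of the others it was 0.355 in shRPS29 and 0.344 in shCONT, and for 10475 that hold none 0.207 in shRPS29 and 0.282 in shCONT. In shRPS29 the ratio was above 10 in 7.32, 7.28 and 2.40% of these classes, and in shCONT in 4.43, 4.02 and 1.00%.

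After knockdown, 11.0% of tested hosts of snoRNA or scaRNA genes, 11.97% of other miRNA hosts and 7.53% of genes that hold none were called higher in Ribo-seq by edgeR, beside 7.96% of all genes. In the same order, 1.23, 0.237 and 0.602% were called lower in Ribo-seq, beside 0.607% of all genes. In RNA-seq 25.1% of snoRNA and scaRNA hosts, 20.2% of other miRNA hosts and 15.6% of genes that hold none were called lower, beside 16.3% of all genes. Those called higher in RNA-seq were 11.7, 15.3 and 14.5%, beside 14.4%. Differences between the classes were not tested.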
